A study of Rattus norvegicus with 6 samples.

Results

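Transcripts of the neuregulin and epidermal growth factor (EGF) system were followed in RSC96, a line of immortalised Schwann cells from rat, through 10 genes of the deposited count table chosen by name: the receptors Erbb2, Erbb3 and Egfr, the ligands Nrg1, Hbegf, Tgfa, Ereg, Areg and Btc, and the receptor inhibitor Errfi1. All 10 were among the 16849 genes listed. The 6 libraries, all of wild-type cells, form 3 groups of 2. Cells labelled PVDF@PDA met a piezoelectric material and cells labelled PCL@PDA a non-piezoelectric one, both in a hypoxia model in which medium conditioned by macrophages was applied for 24 h. Control cells are the third group, and the labels do not state whether they received that medium. The replicates are numbered 1 and 3 and the labels give the same numbers as batches. The question behind PVDF@PDA against PCL@PDA is the effect of piezoelectricity under hypoxic stress, while each material against Control compares whole conditions. PVDF@PDA and PCL@PDA are different materials, so piezoelectricity cannot be told apart from any other difference between them. In the comparisons with Control the material, the hypoxia model and the medium cannot be told apart. Below, a change with PVDF@PDA, with PCL@PDA or with both materials refers to the whole condition.

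In peripheral nerve, neuregulin 1 on axons binds ErbB3 on Schwann cells. ErbB3 has little kinase activity of its own and signals as a pair with ErbB2, which has no known ligand, and this pair governs Schwann cell survival, migration and myelination. The EGF-like ligands HB-EGF, TGF-alpha, epiregulin, amphiregulin and betacellulin are made as membrane-bound precursors, cut free by proteases and bound mainly by the EGF receptor, some of them also by ErbB4. Errfi1 (also called Mig6) binds the kinase domain of these receptors and dampens them.

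Each library held 32760123 to 35389307 counted reads, so that 3 counts correspond to 0.0848 to 0.0916 CPM, the read count scaled to a common library size. On the second principal component (20.8% of the variance) replicates 1 and 3 lay at 10.7 and 11.6 in PVDF@PDA, at 6.09 and -28.5 in PCL@PDA, and at 13.7 and -13.6 in Control, so replicate 3 was the low library in both split pairs. A chi-square comparison of replicate counts gave, for each degree of freedom, 4.80 in the PVDF@PDA pair, 10.2 in the PCL@PDA pair and 5.56 in the Control pair. Defining Schwann cell markers were close to 0: the neurotrophin receptor Ngfr had 0 to 4 counts per library and the calcium-binding S100b 2 to 28. Pmp22, a myelin membrane protein, had 1396 to 1938 and the adhesion molecule Ncam1 3368 to 4716. Of 15 Schwann cell markers 14 were in the table, and their summed level was 266 and 277 CPM of library totals in PVDF@PDA, 258 and 258 in PCL@PDA, and 208 and 229 in Control. The 10 macrophage markers in the table, of 15 listed, summed to 8.55 and 9.04 CPM in PVDF@PDA, 8.91 and 7.47 in PCL@PDA, and 7.58 and 7.86 in Control, and the leukocyte antigen Ptprc had 1 count in Control replicate 3 and 0 elsewhere. The 9 fibroblast markers in the table, of 10 listed, summed to 846 and 867 CPM in PVDF@PDA, 851 and 884 in PCL@PDA, and 875 and 887 in Control. By edgeR's test, described below, single markers moved with both materials against Control. Of the 11 Schwann cell markers tested 3 rose with each: Ncam1 (29.6% with PVDF@PDA and 19.1% with PCL@PDA), Pmp22 (21.6% and 20.3%) and the intermediate filament Nes, which averaged 3.22 CPM in PVDF@PDA, 2.35 in PCL@PDA and 0.995 in Control. Of the 6 fibroblast markers tested the collagen Col1a1 (60.2% and 63.1%) and the receptor Pdgfra (56.7% and 48.4%) rose. The collagen Col1a2, which makes up most of the fibroblast sum, fell with both (-9.59% with PVDF@PDA and -9.43% with PCL@PDA), and the transcription factor Twist1 fell by 16.5% with PCL@PDA. Of these, Col1a1 and Pdgfra with both materials and Ncam1 and Nes with PVDF@PDA passed with each library left out. The others did not: without Control replicate 1 the adjusted p with PCL@PDA was 0.151 for Ncam1, 0.0831 for Nes, 0.248 for Pmp22, 0.203 for Col1a2 and 0.0924 for Twist1, and with PVDF@PDA it was 0.219 for Pmp22 and 0.209 for Col1a2. Calls also ended without PVDF@PDA replicate 1 for Col1a2 (0.247 with PVDF@PDA and 0.0691 with PCL@PDA). They ended without PVDF@PDA replicate 3 for Pmp22 with PVDF@PDA (0.326) and for Col1a2 (0.182 and 0.0699). They ended without PCL@PDA replicate 3 for Nes (0.0864) and Twist1 (0.315) with PCL@PDA, and without Control replicate 3 for Col1a2 (0.149 and 0.136) and, with PCL@PDA, Twist1 (0.247). Of the 5 macrophage markers tested edgeR called 0, and at an unadjusted p below 0.05 stood Cd68 with PVDF@PDA (adjusted p = 0.0688) and Coro1a with PVDF@PDA (0.0847) and PCL@PDA (0.0852). The part of these markers in the results below was not tested.

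Transcripts of Hbegf, Tgfa, Ereg and Areg stood above those of every receptor in all 6 libraries. On the authors' FPKM scale, which divides by gene length and allows levels of different genes to be compared, Hbegf averaged 276 ± 10.6 (SD, n = 6 libraries), Errfi1 179 ± 5.25 and Tgfa 43.6 ± 1.89. Ereg followed at 22.1 ± 2.72 and Areg at 7.95 ± 1.44. The receptors came next, Erbb2 at 4.88 ± 0.468 and Erbb3 at 2.13 ± 0.511. Nrg1 lay at 0.562 ± 0.0764, Btc at 0.364 ± 0.315 and Egfr at 0.0202 ± 0.0273. Neighbours in this order did not overlap over the 6 libraries down to Nrg1, whereas the ranges of Nrg1 and Btc, and of Btc and Egfr, did. The FPKM of Nrg1 rests on a length of 13674 bases, the longest of the 10 (611 bases for Btc is the shortest), and the isoforms of Nrg1 are not separated in these files.

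**Figure D1:**
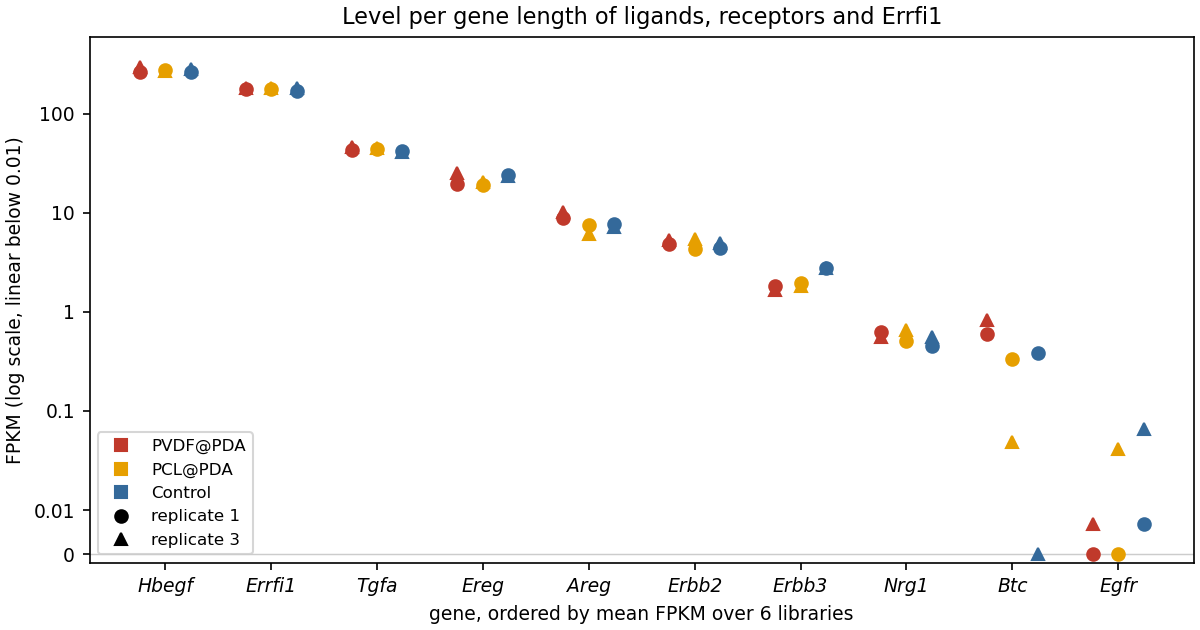
FPKM of the 10 genes in each library (vertical axis logarithmic above 0.01 and linear below), coloured by group, with circles for replicate 1 and triangles for replicate 3. Hbegf and Errfi1 lie above 100 in all 6 libraries, the receptors Erbb2 and Erbb3 between 1.65 and 5.48, and Egfr below 0.1.

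Erbb3, the neuregulin-binding receptor (gene ID 29496), was the one gene of the 10 that edgeR called with all libraries. It was lower with both materials than in Control. It had 371 and 349 counts in PVDF@PDA replicates 1 and 3, 415 and 380 in PCL@PDA, and 592 and 609 in Control. Scaled by the trimmed mean of M-values (TMM), this gave 11.3 and 10.2 CPM in PVDF@PDA, 12.0 and 11.1 in PCL@PDA, and 17.8 and 17.5 in Control. Every library of either material lay below both Control libraries, and the material groups overlapped each other. The group means were 10.7 ± 0.760 CPM in PVDF@PDA, 11.5 ± 0.646 in PCL@PDA and 17.6 ± 0.199 in Control (SD, n = 2 each).

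By edgeR's quasi-likelihood test with Benjamini-Hochberg adjustment over all 13018 genes tested, Erbb3 fell by 39.1% with PVDF@PDA (log2 -0.72, SE 0.14, 95% interval -0.995 to -0.436, adjusted p = 0.000131). With PCL@PDA it fell by 34.4% (log2 -0.61, SE 0.14, 95% interval -0.89 to -0.33, adjusted p = 0.000849). The fall of Erbb3 stood beside the higher Ncam1, Pmp22, Nes, Col1a1 and Pdgfra given above. It also stood beside the lower Col1a2 and, with PCL@PDA, the lower Twist1. Not all of these marker calls held with each library left out, and the part of the markers in the fall of Erbb3 was not tested. Within batch 1 the log2 difference from Control was -0.66 for PVDF@PDA and -0.56 for PCL@PDA, and within batch 3 it was -0.78 and -0.66. Between PVDF@PDA and PCL@PDA the difference was -0.11 (95% interval -0.39 to 0.18, adjusted p = 0.872), so differences within that interval were not excluded. In bulk RNA, fewer cells with the transcript and less transcript per cell cannot be told apart. Both calls against Control held with each library left out in turn and ended in limma on log2(FPKM + 1) over all genes (adjusted p = 0.0676 and 0.0711). Over all alternatives the adjusted p ran from 5.63e-06 to 0.0676 with PVDF@PDA and from 0.000150 to 0.0711 with PCL@PDA.

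Erbb2, the signalling partner of Erbb3 (gene ID 24337), had 23.0 and 24.8 CPM in PVDF@PDA, 20.2 and 25.4 in PCL@PDA, and 21.3 and 23.6 in Control. All 3 groups overlapped, and the log2 differences were 0.09 for PVDF@PDA against Control (95% interval -0.14 to 0.32, adjusted p = 0.669), 0.02 for PCL@PDA against Control (-0.21 to 0.25, adjusted p = 0.929) and 0.07 between the materials (-0.16 to 0.30, adjusted p = 0.905). The ratio of Erbb3 to Erbb2 on the FPKM scale, which is taken within a library and does not depend on scaling between libraries, was 0.373 and 0.313 in PVDF@PDA, 0.453 and 0.332 in PCL@PDA, and 0.633 and 0.564 in Control. It was lower in each of the 4 material libraries than in either Control library.

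Egfr, the receptor of most of the abundant ligands here (gene ID 24329), was scarcely detected. It had 0 and 1 counts in PVDF@PDA, 0 and 6 in PCL@PDA, and 1 and 10 in Control, and it was the one gene of the 10 removed by the filter on low counts. The ratio of summed counts was 0.0946 for PVDF@PDA against Control (95% counting interval 0.00220 to 0.651) and 0.557 for PCL@PDA against Control (0.169 to 1.64), and these intervals cover counting error only. With edgeR run on every gene, without the filter, neither difference passed (adjusted p = 0.386 and 0.813). Most of the Egfr reads came from batch 3, where the libraries of PCL@PDA and Control held 6 and 10. Erbb4, the remaining receptor of the family, had 1 and 2 counts in PVDF@PDA, 1 and 0 in PCL@PDA, and 0 in both Control libraries. The receptor transcripts that could be measured were therefore those of Erbb2 and Erbb3.

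**Figure D2:**
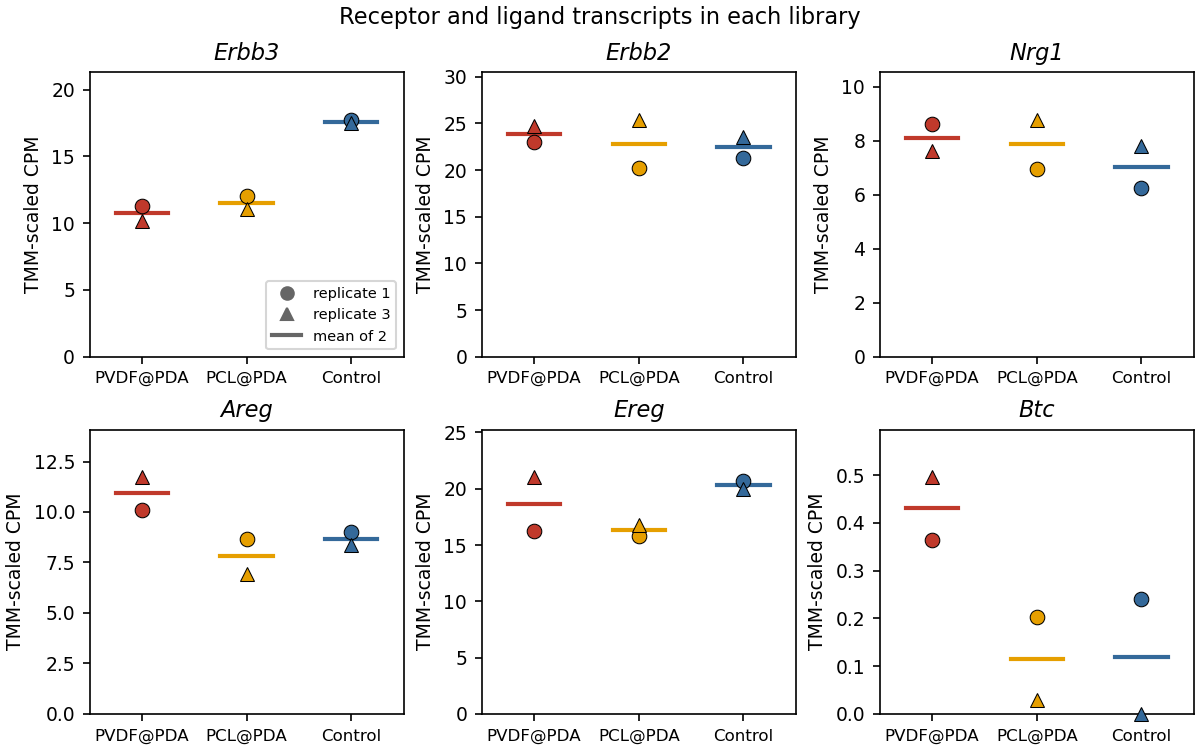
TMM-scaled CPM of 2 receptors and 4 ligands in each library (points; circles replicate 1, triangles replicate 3) with the mean of each group of 2 (bars), PVDF@PDA at the left of each panel. Erbb3 lies at 10.2 to 12.0 with the materials and at 17.5 and 17.8 in Control, while the groups of Erbb2 and Nrg1 overlap.

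The promoter sequences of 7 of the 10 genes were found in the RefSeq table (build GRCr8), and those of Egfr, Errfi1 and Areg are shown. They are the scarcest receptor, the abundant inhibitor, and a ligand that stood higher in both PVDF@PDA libraries, a choice made after their values were seen. They are also the only ones of the 7 with a motif match, so the choice links no level to a motif. Btc also stood higher in both PVDF@PDA libraries and held no match. Each sequence shown is the 250 bases before the annotated start, 5′ to 3′ on the gene's strand. Capitals mark matches, on either strand, to the cAMP response element TGACGTCA or the hypoxia response core ACGTG. The matches do not overlap, and no match to the AP-1 site TGANTCA was found in the 7 promoters.
Egfr, chr14:95378376-95378625, + strand: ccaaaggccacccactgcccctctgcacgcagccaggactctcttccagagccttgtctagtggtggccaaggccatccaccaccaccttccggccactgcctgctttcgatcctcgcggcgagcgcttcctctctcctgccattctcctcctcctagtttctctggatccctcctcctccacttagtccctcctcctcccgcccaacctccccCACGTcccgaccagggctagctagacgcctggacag
Errfi1, chr5:166606591-166606840, + strand: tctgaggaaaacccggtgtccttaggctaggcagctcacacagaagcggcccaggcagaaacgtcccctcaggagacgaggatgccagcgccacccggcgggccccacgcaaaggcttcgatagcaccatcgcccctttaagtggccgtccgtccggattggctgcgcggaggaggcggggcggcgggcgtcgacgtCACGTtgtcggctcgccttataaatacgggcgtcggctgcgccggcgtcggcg
Areg, chr14:17265642-17265891, - strand: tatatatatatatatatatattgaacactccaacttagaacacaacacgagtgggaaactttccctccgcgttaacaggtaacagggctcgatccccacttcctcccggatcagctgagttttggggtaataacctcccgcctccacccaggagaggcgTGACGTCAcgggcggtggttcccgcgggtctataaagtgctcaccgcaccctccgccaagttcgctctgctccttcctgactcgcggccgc
The Areg promoter held the cAMP response element at -91 to -84 from the start, a motif present in 1.59% of 33469 rat promoters of this length. Egfr held the hypoxia response core at -36 to -32 and Errfi1 at -53 to -49, a motif present in 16.6%, and the AP-1 site was present in 6.34%. The promoters of Erbb2, Hbegf, Tgfa and Btc held none of these letters in this window, and Erbb3, Nrg1 and Ereg are named only. Other spellings of these motifs were not searched, so these promoters may hold them. A match is a description of letters and not a shown binding site.

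Nrg1, the ligand of Erbb3 (gene ID 112400), had 8.62 and 7.62 CPM in PVDF@PDA, 6.97 and 8.79 in PCL@PDA, and 6.27 and 7.80 in Control. The groups overlapped in all 3 comparisons. The log2 difference from Control was 0.21 for PVDF@PDA (95% interval -0.16 to 0.57, adjusted p = 0.506) and 0.16 for PCL@PDA (-0.21 to 0.53, adjusted p = 0.602), and between the materials it was 0.04 (-0.32 to 0.41, adjusted p = 0.965). In the annotation of GRCr8, Nrg1 overlaps 2 long noncoding RNA genes, and the counting strand is not given in the sources used here.

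Hbegf, which encodes HB-EGF (gene ID 25433), had 411 and 452 CPM in PVDF@PDA, 428 and 414 in PCL@PDA, and 420 and 441 in Control. Its log2 difference was bounded closely in each comparison, at 0.00 for PVDF@PDA against Control (95% interval -0.10 to 0.11, adjusted p = 0.986), -0.03 for PCL@PDA against Control (-0.14 to 0.07, adjusted p = 0.732) and 0.04 between the materials (-0.07 to 0.14, adjusted p = 0.889). Tgfa, which encodes TGF-alpha (gene ID 24827), had 190 and 203 CPM in PVDF@PDA, 195 and 198 in PCL@PDA, and 193 and 184 in Control. Both PCL@PDA libraries lay above both Control libraries, and the other pairs of groups overlapped. The 95% interval of its log2 difference ran from -0.06 to 0.17 for PVDF@PDA against Control, from -0.05 to 0.17 for PCL@PDA against Control and from -0.11 to 0.11 between the materials. The test of Tgfa gave an adjusted p of 0.555 for PVDF@PDA against Control, 0.527 for PCL@PDA against Control and 0.997 between the materials. The intervals of Hbegf and Tgfa were the narrowest among the ligands.

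Areg, which encodes amphiregulin (gene ID 29183), had 10.1 and 11.7 CPM in PVDF@PDA, 8.68 and 6.95 in PCL@PDA, and 8.997 and 8.349 in Control. Both PVDF@PDA libraries lay above the libraries of the other groups. The log2 difference was 0.48 between the materials (SE 0.17, 95% interval 0.15 to 0.82), higher in both batches (0.22 and 0.76), with an unadjusted p of 0.00584 that did not pass over all genes by edgeR (adjusted p = 0.412). Against Control it was 0.33 for PVDF@PDA (95% interval -0.0021 to 0.669, adjusted p = 0.181) and -0.15 for PCL@PDA (-0.49 to 0.19, adjusted p = 0.601). Without PCL@PDA replicate 1, the difference between the materials was 0.65 and passed (edgeR adjusted p = 0.0372). That fit has PCL@PDA replicate 3 as the sole library of its group, which is assumed to vary like the other groups, and it called 827 of 13425 genes, against 8 of 13018 with all libraries. Over the 16 alternatives the difference ran from 0.33 to 0.65 and its adjusted p from 0.0372 to 0.9999.

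Ereg, which encodes epiregulin (gene ID 59325), had 16.2 and 21.1 CPM in PVDF@PDA, 15.8 and 16.8 in PCL@PDA, and 20.7 and 19.97 in Control. Both PCL@PDA libraries lay below both Control libraries, whereas the PVDF@PDA pair was spread over the range of the others. PCL@PDA against Control gave a log2 difference of -0.32 (95% interval -0.57 to -0.07), which did not pass (edgeR adjusted p = 0.0639). Adding the batch to the fit left it at -0.32, and it passed (edgeR adjusted p = 0.0365). Over all alternatives its adjusted p ran from 0.0365 to 0.306. The difference was -0.13 for PVDF@PDA against Control (-0.38 to 0.12, adjusted p = 0.557) and 0.19 between the materials (-0.06 to 0.45, adjusted p = 0.679).

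Btc, which encodes betacellulin (gene ID 64022), had 12 and 17 counts in PVDF@PDA, 7 and 1 in PCL@PDA, and 8 and 0 in Control. Both PVDF@PDA libraries lay above the others, and Btc passed the filter on low counts only through that group. The ratio of summed counts was 3.70 for PVDF@PDA against PCL@PDA (95% counting interval 1.65 to 9.36) and 3.77 for PVDF@PDA against Control (1.68 to 9.55). Neither difference passed edgeR's test (adjusted p = 0.628 and 0.248), which takes the spread between replicates into account.

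Errfi1, the feedback inhibitor (gene ID 313729), had 532 and 549 CPM in PVDF@PDA, 531 and 534 in PCL@PDA, and 520 and 555 in Control. It was the most abundant of the 10 by reads. Its log2 difference was 0.01 for PVDF@PDA against Control (95% interval -0.09 to 0.11, adjusted p = 0.935), -0.01 for PCL@PDA against Control (-0.11 to 0.09, adjusted p = 0.902) and 0.02 between the materials (-0.08 to 0.12, adjusted p = 0.931). In the annotation of GRCr8, Errfi1 overlaps a long noncoding RNA gene.

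**Figure D3:**
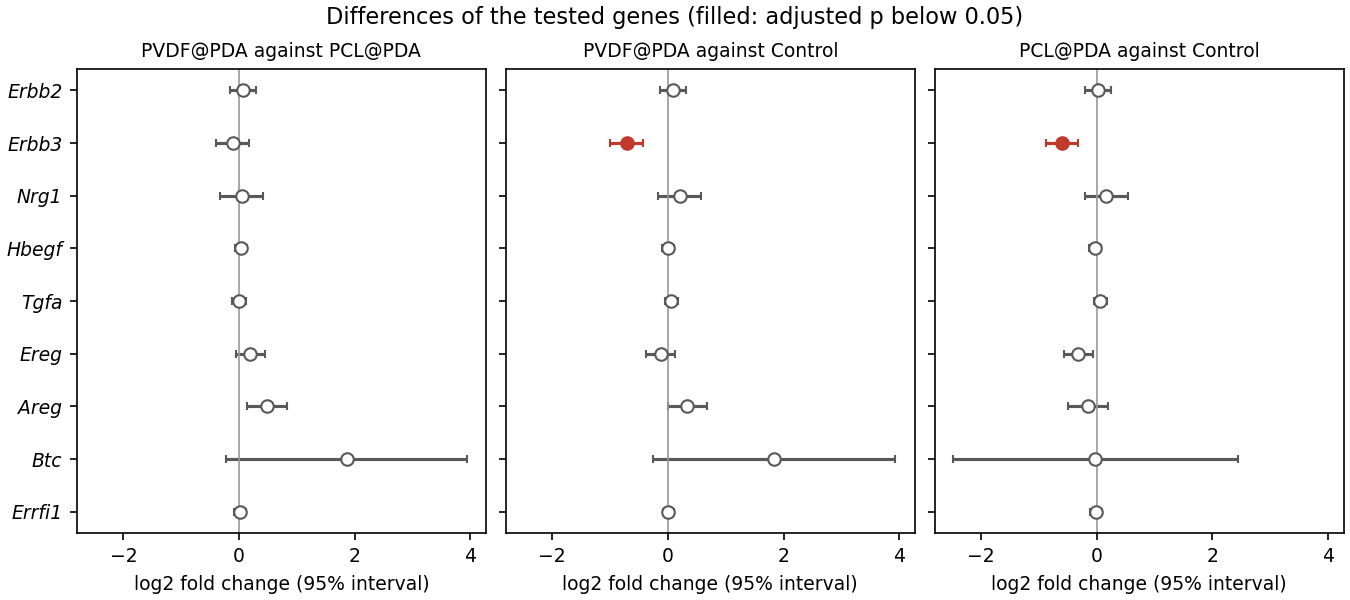
Log2 fold change with its 95% interval for the 9 tested genes in each comparison (first group over second), filled where the edgeR adjusted p is below 0.05. Erbb3 against Control is filled with both materials (-0.72 and -0.61), and no gene is filled between the materials.

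Of the 9 genes tested, 0 were called between PVDF@PDA and PCL@PDA, where 8 of 13018 genes (0.0615%) were called in all, 0.0538% higher and 0.00768% lower. An unadjusted p below 0.05 was found for 1 of the 9 (Areg), against 8.49% of all genes. DESeq2 and limma on log2(FPKM + 1) also called 0 of them in this comparison. Against Control, Erbb3 was called with PVDF@PDA, where 15.7% of all genes were called (6.79% higher and 8.9% lower), and with PCL@PDA, where 20.1% were called (8.77% higher and 11.3% lower). An unadjusted p below 0.05 was found for 1 of the 9 with PVDF@PDA (28.2% of all genes) and for 2 with PCL@PDA (31% of all genes). The share called among the 9 was 11.1% in each comparison with Control, which is 1 gene, too few to set this share apart from that of all genes. The groups did not overlap for 2 of the 9 between the materials (38% of all genes), for 3 with PVDF@PDA against Control (58.5%) and for 3 with PCL@PDA against Control (56.2%). Btc is among these in both comparisons of PVDF@PDA, and it passed the filter on low counts only through that group, which favours such a result. It is also part of the medians that follow. The median log2 difference over the 9 was 0.04, 0.06 and -0.03 in these 3 comparisons, and the median over all genes was 0.00, 0.01 and 0.01. Both comparisons with Control share the same Control libraries.

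The tested genes whose log2 CPM over the 6 libraries was most like that of Erbb3 were Anxa3, a calcium-dependent membrane-binding annexin (gene ID 25291, Pearson r = 0.997), and Nfe2l1, a stress-responsive transcription factor (gene ID 360610, r = 0.995). Of 10374 genes compared, 12 had r above 0.99, and the 6 libraries form only 3 groups. Anxa3 fell by 0.50 on the log2 scale with PVDF@PDA and by 0.45 with PCL@PDA, and Nfe2l1 fell by 0.21 and by 0.18. Both genes were picked for their likeness to Erbb3 in these same libraries, so the direction of these falls follows from that choice.

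The remaining ligands were sparse. Egf had 93 and 120 counts in PVDF@PDA, 101 and 102 in PCL@PDA, and 107 and 142 in Control. Nrg2 had 6 and 18 counts in PVDF@PDA, 20 and 15 in PCL@PDA, and 6 and 10 in Control. Nrg4 had 6 and 29 in PVDF@PDA, 5 and 9 in PCL@PDA, and 14 and 23 in Control. Nrg3 had 1 count in PVDF@PDA replicate 1 and 0 elsewhere. None of the 3 that could be tested (Egf, Nrg2 and Nrg4) was called in any comparison by edgeR (adjusted p at least 0.257).

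Of 17 genes for ligand shedding and its regulation, proteases and proteins that act on them, 14 were tested. Adam10 and Adam17, the main sheddases of EGF-like ligands, were not called in any comparison (edgeR adjusted p at least 0.302). Adam12, a related protease that can cut HB-EGF, had 128 and 124 CPM in PVDF@PDA, 123 and 128 in PCL@PDA, and 168 and 187 in Control, and fell by 0.50 on the log2 scale with either material (adjusted p = 1.15e-08 and 5.34e-09). Adam19, which can cut neuregulins, fell by 0.43 with PVDF@PDA and by 0.49 with PCL@PDA (adjusted p = 9.76e-05 and 7.98e-06). These were the 2 members lower with each material. With PVDF@PDA 0 members rose, and with PCL@PDA 3 rose, among them Rhbdf1, an inactive rhomboid that acts on Adam17 transport (log2 0.63, adjusted p = 0.00977), and the proprotein convertase Furin (0.30, 0.0217). The calls of Rhbdf1 and Furin ended without PCL@PDA replicate 3 (0.30 and 0.23, adjusted p = 0.408 and 0.168) or Control replicate 1 (0.53 and 0.23, adjusted p = 0.113 and 0.256). The list's median log2 difference was 0.07 with PVDF@PDA and 0.09 with PCL@PDA, against 0.01 over all genes in both.

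Of 24 adaptors and kinases of the RAS-ERK route, each of them tested, 2 were called higher and 5 lower in PVDF@PDA than in Control, and 4 higher and 6 lower in PCL@PDA than in Control. Src, a tyrosine kinase that acts with these receptors, had 38.3 and 38.6 CPM in PVDF@PDA, 39.2 and 44.9 in PCL@PDA, and 54.5 and 60.7 in Control. It fell by 0.58 on the log2 scale with PVDF@PDA (edgeR adjusted p = 7.87e-07) and by 0.45 with PCL@PDA (adjusted p = 5.96e-05). Map2k2, which encodes the kinase MEK2, fell by 0.46 with PVDF@PDA (adjusted p = 0.000957) and was at -0.14 with PCL@PDA (adjusted p = 0.385). The difference of Map2k2 between the materials did not pass with all libraries and did without PCL@PDA replicate 1 (-0.39, adjusted p = 0.0253), where 827 of 13425 genes passed. The phospholipase Plcg1 rose by 0.25 and 0.31 (adjusted p = 0.00673 and 0.000471), and this ended without Control replicate 1 (0.18 and 0.24, adjusted p = 0.223 and 0.0623) while without PVDF@PDA replicate 3 the first of these calls also ended (0.24, 0.0783). Nras fell by 0.23 and 0.18 (adjusted p = 0.00756 and 0.0330) and lost these calls without Control replicate 1 (-0.21 and -0.16, adjusted p = 0.105 and 0.231), as well as without PVDF@PDA replicate 1 (0.0640 and 0.0516) or 3 (0.0832 and 0.0524) and, with PCL@PDA, without PCL@PDA replicate 1 (0.0727) or Control replicate 3 (0.0985). The exchange factor Sos2 fell by 0.18 with PVDF@PDA (adjusted p = 0.0392, and 0.130 to 0.233 without any one of the 4 libraries compared) and by 0.32 with PCL@PDA (0.000135). Mapk3, which encodes ERK1, rose by 0.23 with PCL@PDA (adjusted p = 0.00521). The call of Mapk3 ended without PCL@PDA replicate 3 (0.15, 0.102) or Control replicate 3 (0.20, 0.103). The list's median was -0.04 and -0.05.

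Of 19 genes of the PI3K-AKT arm, all tested, 2 rose and 1 fell with each material. Foxo1, a transcription factor restrained by AKT, rose by 0.58 on the log2 scale with PVDF@PDA and by 0.53 with PCL@PDA (edgeR adjusted p = 0.00155 and 0.00302), the second call ending without PCL@PDA replicate 3 (0.36, 0.124). Pik3r2, a regulatory subunit of PI3K, rose by 0.42 and 0.49 (adjusted p = 0.00256 and 0.000290), the first call ending without PVDF@PDA replicate 1 (0.32, 0.0928) or Control replicate 1 (0.28, 0.143). The kinase Akt2 fell by 0.18 with PVDF@PDA (adjusted p = 0.0454) and the subunit Pik3r1 by 0.23 with PCL@PDA (0.0354). Akt2 lost its call without any one of the 4 libraries compared (0.154 to 0.219), and Pik3r1 with any one library left out except PCL@PDA replicate 1 (0.0510 to 0.202). The list's median was 0.01 and -0.02.

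Of 23 genes that restrain or route these receptors, 22 were tested, with 0 higher and 2 lower with PVDF@PDA and 0 higher and 3 lower with PCL@PDA. The endocytic adaptor Eps15 fell by 0.18 and 0.26 on the log2 scale (edgeR adjusted p = 0.0167 and 0.000457) and Erbin, which binds ErbB2, fell by 0.17 and 0.22 (0.0232 and 0.00229). With PVDF@PDA these 2 calls ended without PVDF@PDA replicate 1 (0.105 and 0.194), PVDF@PDA replicate 3 (0.127 and 0.0902) or Control replicate 1 (0.171 and 0.239), and that of Erbin with PCL@PDA ended without Control replicate 1 (0.0726). The phosphatase Ptpn12 fell by 0.26 with PCL@PDA (0.000197) and was at -0.12 with PVDF@PDA (0.110, and 0.0213 or 0.0201 without PCL@PDA replicate 1 or 3). Lrig1 and the ubiquitin ligase Cbl, both of which promote receptor degradation, were not called in any comparison (adjusted p at least 0.298). The list's median was -0.02 with both materials.

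Transcripts that respond to ERK signalling moved in both directions. Of 22 listed 21 were tested, with 3 higher and 5 lower with PVDF@PDA and 5 higher and 5 lower with PCL@PDA. Dusp1, a phosphatase of MAP kinases, rose by 0.43 and 0.54 on the log2 scale (edgeR adjusted p = 6.66e-07 and 1.25e-09). Spry4, a Sprouty inhibitor of receptor signalling, had 15.6 and 12.8 CPM in PVDF@PDA, 12.9 and 14.2 in PCL@PDA, and 8.73 and 8.92 in Control, and rose by 0.68 and 0.62 (0.000675 and 0.00168). Its relative Spry2 fell by 0.29 and 0.25 (0.00124 and 0.00377), and Phlda1 fell by 0.33 and 0.26 (0.000260 and 0.00284). The ERK phosphatase Dusp5 rose by 0.18 and 0.31 (0.0157 and 2.18e-05). Fosl1, an AP-1 subunit, rose by 0.25 with PCL@PDA (0.000254) and was at 0.12 with PVDF@PDA (0.105). With the batch in the fit that value became 0.0375, and 0.0161 or 0.0238 without PCL@PDA replicate 1 or 3. Calls with PVDF@PDA ended without PVDF@PDA replicate 1 for Spry4 (0.53, 0.0621), without PVDF@PDA replicate 3 for Spry2 (-0.24, 0.0687) and Dusp5 (0.12, 0.377), and without Control replicate 1 for Dusp5 (0.15, 0.230), while Spry2 with PCL@PDA ended without Control replicate 1 (-0.22, 0.0937). The list's median was 0.04 and -0.03. In all of these pathway lists, 0 genes were called by edgeR between PVDF@PDA and PCL@PDA with all libraries. The fit without PCL@PDA replicate 1 leaves 1 library of that group, with a spread taken from the other groups. From the pathway lists, it was looked up only for the named genes called against Control, and not for the other listed genes. Among those looked up, the comparison between the materials passed there for Map2k2 as given above. It also passed for Sos2 (0.22), Eps15 (0.16), Ptpn12 (0.16), Dusp1 (-0.19), Dusp5 (-0.20) and Fosl1 (-0.18).

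**Figure D4:**
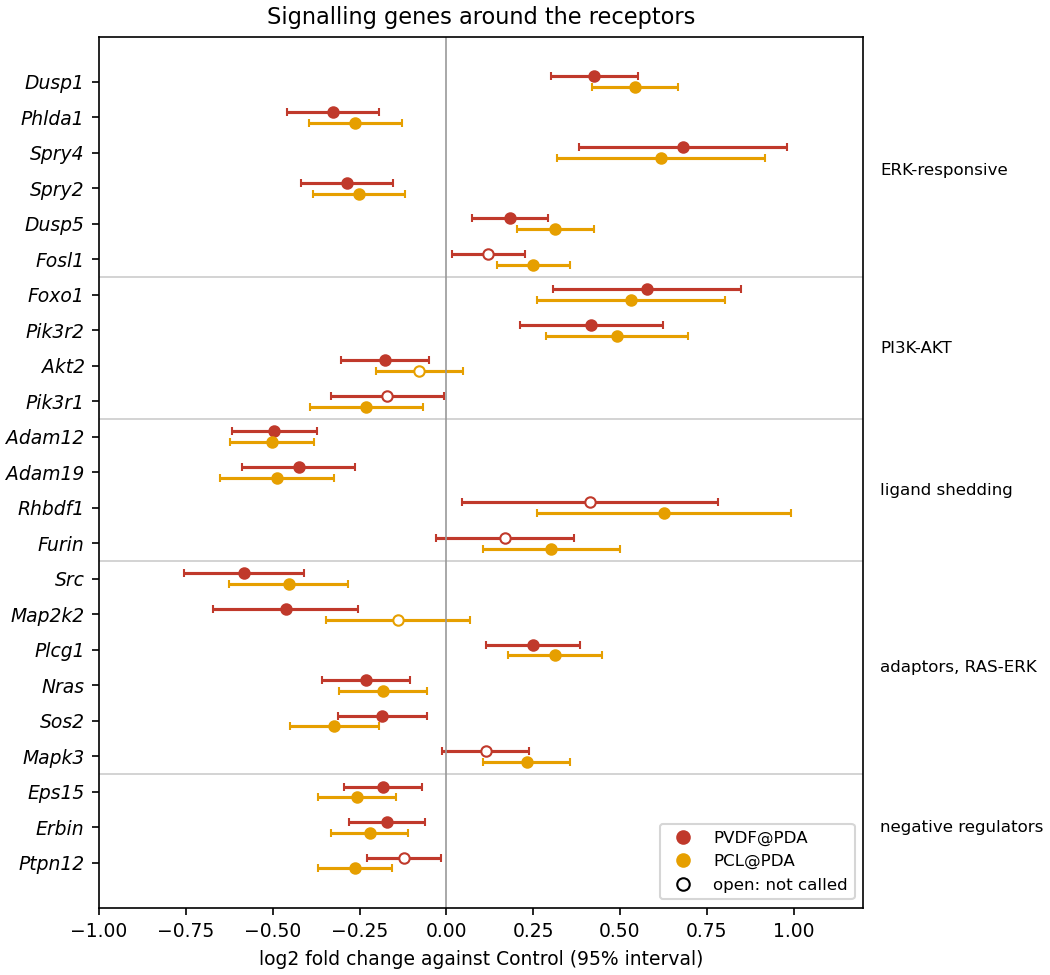
Log2 fold change against Control with its 95% interval for the pathway genes named in the text, PVDF@PDA above PCL@PDA on each row and open symbols where the edgeR adjusted p is not below 0.05. Src, Adam12 and Adam19 lie left of 0 and Dusp1, Spry4, Foxo1 and Pik3r2 right of 0 with both materials.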

How the data were processed

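The authors deposited raw read counts per gene for all 6 libraries. The authors also deposited FPKM values, which divide by gene length and library total, and each of 15690 genes checked had FPKM values that follow from its count, 1 length and the library total (relative tolerance 1e-05). The submitters' processing notes name DESeq2 1.4.5 and mRatBN7.2, a rat assembly, with no role stated. Which aligner, counter and annotation were used, and whether counting used strand, is not given in the sources used here. Libraries were grouped by title. For PCL@PDA the description field gives PVDF@PDA as the material, and titles and treatment fields were used.

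The count model was made in edgeR 4.0.16 under R 4.3.3, after filterByExpr (minimum count 10) and TMM scaling. A robust quasi-likelihood model held 1 mean for each of the 3 groups and used all 6 libraries, with 3 residual degrees of freedom. After the filter 13018 genes were left. A gene was called where its 2-sided p, adjusted by Benjamini-Hochberg across these genes, was below 0.05. Adjusted p-values come from this model unless another is named. CPM values are TMM-scaled and given as mean ± SD, and counting intervals are exact 95% Poisson intervals. Alternatives changed the scaling, the filter, the libraries fitted, the robust option or the batch term, left out each library in turn, or used DESeq2 1.42.0 on the counts or limma 3.58.1 on log2(FPKM + 1) or log2(FPKM + 0.1).

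The labels do not say that libraries came from separate cultures, so the p-values measure only how these samples vary, and that variation may be technical. The labels mark replicates 1 and 3 as batches shared across groups, which pairs the libraries. Deviations of same-batch libraries correlated weakly: r was -0.02 between the 2 materials, 0.04 between PVDF@PDA and Control, and 0.13 between PCL@PDA and Control.

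The 10 genes, the pathway lists and the tests were chosen with earlier results of these data known. Named were all 10 genes, up to 4 called genes with the smallest p per pathway list and comparison, and the 2 genes most like each called member among genes averaging at least 1 on the log2 CPM scale. Adam10, Adam17, Lrig1, Cbl and the sparse ligands and receptors were named for their roles. Promoter sequences are from RefSeq (GRCr8), and only gene names and overlaps were taken from its annotation.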

Additional observations from a re-analysis of the deposited data

How the results depend on the processing

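The fall of Erbb3 kept its direction in all 16 alternatives in both comparisons with Control (log2 -0.79 to -0.47 with PVDF@PDA and -0.67 to -0.39 with PCL@PDA), and none of the 10 genes had a called difference that changed sign. The members called numbered 0 with each material against Control in limma on log2(FPKM + 1) over all genes, where the larger number of low genes tested is part of the setting, and 2 with PCL@PDA against Control with the replicate block (batch as an added term), Erbb3 and Ereg. The block changed no other call of the 10. With each library left out in turn, where the lone library of a group is assumed to vary like the other groups, 0 to 1 were called between the materials (Areg without PCL@PDA replicate 1) and 1 in each comparison with Control.

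Counts over all genes depended on the settings. Between the materials 8 genes were called with all libraries, 5 with scaling by library totals alone, 17 with no filter on low counts, 5 in DESeq2, 59 with the replicate block, 0 in limma on log2(FPKM + 1), log2(FPKM + 0.1) or log2(FPKM + 1) over all genes (971, 962 and 1174 at an unadjusted p below 0.05), and 0 to 827 with a library left out, lowest without PVDF@PDA replicate 3 and highest without PCL@PDA replicate 1. In PVDF@PDA against Control 2042 genes were called, 926, 997 and 270 in those limma fits and 1030 to 2869 with a library left out. In PCL@PDA against Control 2616 were called, 1366, 1447 and 474 in those limma fits and 1346 to 3173 with a library left out. The causes were not tested. Scaling by library totals alone gave 1164 higher and 879 lower in PVDF@PDA against Control, where TMM gave 884 and 1158, and for PCL@PDA against Control 1481 higher and 1070 lower, where TMM gave 1142 and 1474. Of the pathway genes named, 17 were called with PVDF@PDA and 21 with PCL@PDA, none reversed under any alternative, and limma over all genes ended 17 and 18 of these calls. Depth limits Egfr, Btc, Nrg2 and Nrg4, which lay near the level of 3 counts in at least 1 library.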

Other observations

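Spry1, a Sprouty inhibitor of receptor tyrosine kinase signalling, was the one ERK-responsive gene removed by the filter on low counts, and it is named here after its values were seen. It had 0 and 0 counts in PVDF@PDA, 0 and 1 in PCL@PDA, and 6 and 12 in Control. When edgeR was run on every gene, without the filter, it did not pass (adjusted p = 0.0900 with PVDF@PDA and 0.198 with PCL@PDA). Its relatives Spry2, lower with both materials, and Spry4, higher with both, were read far more deeply.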
